A study of Mus musculus with 9 samples.

Results

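The enzymes described here make prostaglandins, thromboxane and leukotrienes from arachidonic acid. The 10 genes were chosen by symbol as the phospholipase, cyclooxygenase and lipoxygenase pathway, namely Pla2g4a, Ptgs1, Ptgs2, Ptges, Alox5, Alox5ap, Lta4h, Ltc4s, Hpgds and Tbxas1. All 10 were among the 14905 genes of the deposited table, picked there by symbol with no use of a measured value in the rule. RNA had been sequenced from F4/80 and CD11b double-positive macrophages sorted from mouse visceral fat, in 5 libraries of Nucb2-/- mice (KO) and 4 of wild-type mice (WT). Both groups had a C57BL/6 background. Nucb2 encodes nucleobindin-2, the precursor of the peptide nesfatin-1, and the allele, the age and the diet of the mice are not given in the labels. The name of the deposited data, shared by both groups, holds the letters HFD, a usual short form of high-fat diet. No label explains them. The comparison asked which transcripts of these fat macrophages differ when Nucb2 is lost.

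Arachidonic acid is held in membrane phospholipids until cytosolic phospholipase A2, the product of Pla2g4a, frees it. The cyclooxygenases encoded by Ptgs1 and Ptgs2 turn it into prostaglandin H2, from which terminal synthases make prostaglandin E2 (Ptges), prostaglandin D2 (Hpgds) and thromboxane A2 (Tbxas1). Along the other branch 5-lipoxygenase (Alox5), helped by the membrane protein FLAP (Alox5ap), forms leukotriene A4, which Lta4h hydrolyses to leukotriene B4 and Ltc4s joins to glutathione as leukotriene C4. Macrophages can run both branches. Hpgds and Ltc4s are also strongly expressed in mast cells, and Ptgs1 and Tbxas1 in platelets.

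The start regions of 3 of these genes are printed because their enzymes sat at the ends of the range of differences between the groups, Ltc4s and Ptges at the high end and Ptgs2 at the low end. Each window runs from 250 bases before the annotated start to 30 bases from it, on the gene's own strand (RefSeq, GRCm38.p6). The windows are chr11:50238503-50238782 on the minus strand for Ltc4s, chr2:30903268-30903547 on the minus strand for Ptges and chr1:150099781-150100060 on the plus strand for Ptgs2. The RefSeq start of Ptges lies inside the longer gene span that GENCODE gives. Capitals mark matches on either strand to 6 motifs, the GC box GGGCGG, the CACCC box CCACCC, the TATA box TATAAA, the cyclic AMP response element core ACGTCA, the C/EBP palindrome TTGCGCAA and the E-box CACGTG.
Ltc4s: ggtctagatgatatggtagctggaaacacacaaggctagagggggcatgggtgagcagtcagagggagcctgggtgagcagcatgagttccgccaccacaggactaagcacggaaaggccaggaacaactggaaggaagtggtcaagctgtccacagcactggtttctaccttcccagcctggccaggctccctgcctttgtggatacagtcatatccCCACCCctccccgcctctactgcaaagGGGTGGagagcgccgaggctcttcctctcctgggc
Ptges: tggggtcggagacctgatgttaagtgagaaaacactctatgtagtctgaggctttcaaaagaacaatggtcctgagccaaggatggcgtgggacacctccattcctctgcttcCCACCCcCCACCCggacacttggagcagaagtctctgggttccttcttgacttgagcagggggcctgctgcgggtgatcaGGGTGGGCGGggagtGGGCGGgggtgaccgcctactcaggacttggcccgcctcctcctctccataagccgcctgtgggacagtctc
Ptgs2: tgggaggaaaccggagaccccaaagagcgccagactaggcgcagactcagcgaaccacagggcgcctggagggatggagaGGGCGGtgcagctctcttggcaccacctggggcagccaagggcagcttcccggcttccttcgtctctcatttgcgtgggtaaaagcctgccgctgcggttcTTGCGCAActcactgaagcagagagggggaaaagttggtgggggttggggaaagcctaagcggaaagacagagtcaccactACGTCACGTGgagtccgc

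The Ptgs2 window held 4 of the 6 motifs and the other two windows held neither the cyclic AMP element nor the palindrome. Its palindrome TTGCGCAA lay at position -69, counted with the annotated start as 1. It occurred in 0.180% of 32851 windows of the same length around annotated starts. The element core ACGTCA of Ptgs2 (position 13, 7.26% of windows) overlapped its E-box CACGTG (position 17, 6.79% of windows), and its GC box lay at position -170. The Ptges window held 2 GC boxes and 3 CACCC boxes, one pair of which overlapped, and the Ltc4s window held 2 CACCC boxes, at positions -32 and -5. GC boxes occurred in 34.7% and CACCC boxes in 30.2% of all windows. Windows were found for 9 of the 10 enzymes, the exception being Alox5ap, and among the 9 the palindrome was found in Ptgs2 and in none of the others. A letter match describes the window and is no evidence of a bound site.

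The values are normalized read counts with a floor of 1, and the smallest step between values put the reads per library at 51148956 to 55004978 in 3 libraries (KO replicate 5, WT replicates 3 and 4) and 74937713 to 85200100 in the other 6. Whether the libraries are of separate mice is not said in the labels; p-values here weigh only how these libraries vary, and part of that variation may be technical. Nucb2 averaged 1500 ± 219 normalized counts in KO, against 4313 ± 791 in WT (SD, n = 5 and 4), 34.8% of the WT mean, and each KO library lay below each WT library. Its log2 difference was -1.52 (limma, adjusted p = 0.00054). Macrophage genes and sort antigens were present throughout, with 12 of 12 measured and a summed level of 1569103 to 1734309 in KO, against 1621459 to 1820590 in WT. Of the 12, 0 passed (0.309% over all genes). At an unadjusted p under 0.05, 5 were lower and 1 higher in KO (3.78% and 5.37% over all genes). A KO range wholly below the WT range was found for 3 (1.6% over all genes), and the median log2 difference was -0.12. Fewer cells of a type and less RNA per cell cannot be told apart in such bulk libraries.

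All 10 enzymes were expressed well above the floor in each library. Divided by transcript length, Alox5ap was the most abundant, at 38691 ± 3664 normalized counts per kilobase in KO, against 35211 ± 1164 in WT (SD, n = 5 and 4). That was 6.31 times Tbxas1 in KO and 4.65 times in WT, the next enzyme in both groups. Tbxas1 had 6129 ± 595 per kilobase in KO, against 7574 ± 1304 in WT. Hpgds followed at 4641 ± 653 in KO, against 5148 ± 621 in WT. Lta4h had 3533 ± 493 per kilobase in KO, against 3654 ± 645 in WT, and Ptgs2 had 3196 ± 540 in KO, against 4578 ± 1427 in WT. The ranges of Tbxas1, Hpgds, Lta4h and Ptgs2 overlapped from each to the next in KO, as did those of Ptgs2 and Ltc4s, the next below, so neighbours among these 5 are not separated in KO. In WT, Ptgs2 ranked above Lta4h, and the ranges of Hpgds, Ptgs2 and Lta4h overlapped from each to the next.

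Next by mean came Ltc4s, at 2524 ± 395 normalized counts per kilobase in KO, against 1258 ± 352 in WT (SD, n = 5 and 4), and Pla2g4a, at 1478 ± 201 in KO, against 1689 ± 362 in WT. Ltc4s ranked above Pla2g4a in KO with no overlap of their ranges, and below it in WT with an overlap. Ptgs1 had 869 ± 191 per kilobase in KO, against 627 ± 92 in WT, and Alox5 815 ± 145 in KO, against 568 ± 105 in WT, overlapping in each group. Ptges was the lowest, at 341 ± 95 in KO, against 220 ± 25 in WT. The Alox5ap transcript thus exceeded the Alox5 transcript per kilobase by more than an order of magnitude in both groups.

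**Figure D1:**
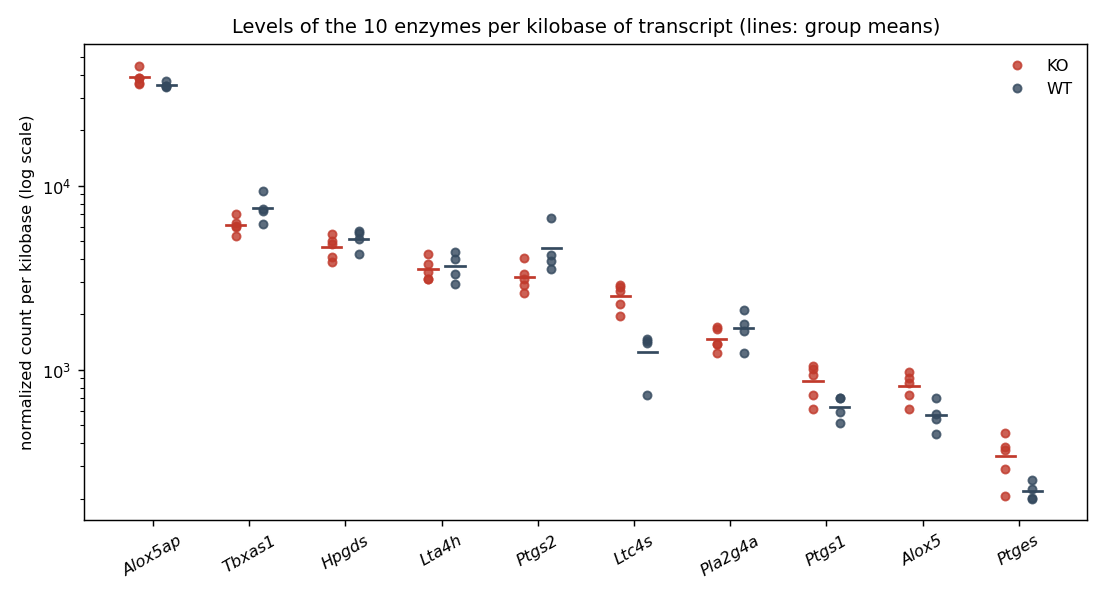
Normalized counts per kilobase of transcript (log axis) for the 10 enzymes in each KO library (red, left) and each WT library (dark, right), ordered by the KO mean; short lines are group means. Alox5ap stands near 38691 in KO, against 35211 in WT, Ptges near 341 in KO, against 220 in WT, and the Ltc4s points of the groups do not overlap.

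With 1 value per library and gene, limma was fitted to all 14905 genes and p-values were adjusted over all of them. Of the 10 enzymes 0 passed an adjusted p of 0.05, against 46 genes or 0.309% of the table. At an unadjusted p under 0.05 there were 6 enzymes, 4 higher in KO (Ltc4s, Alox5, Ptgs1 and Ptges) and 2 lower (Ptgs2 and Tbxas1). The whole table had 9.14% of its genes there, 5.37% higher and 3.78% lower, and the 6111 genes with at least the mean of the lowest enzyme had 12.5%. The differences ran both ways, 5 above 0 and 5 below, with a median of 0.04 on the log2 scale against 0.02 over all genes. Taken without sign, the median log2 difference was 0.375 for the enzymes, against 0.134 for those 6111 genes. The ranges of KO and WT did not overlap for 1 enzyme, Ltc4s, as for 3.15% of the genes of the table and 4.48% of those 6111 genes. Since no enzyme passed, the values below describe these libraries.

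**Figure D2:**
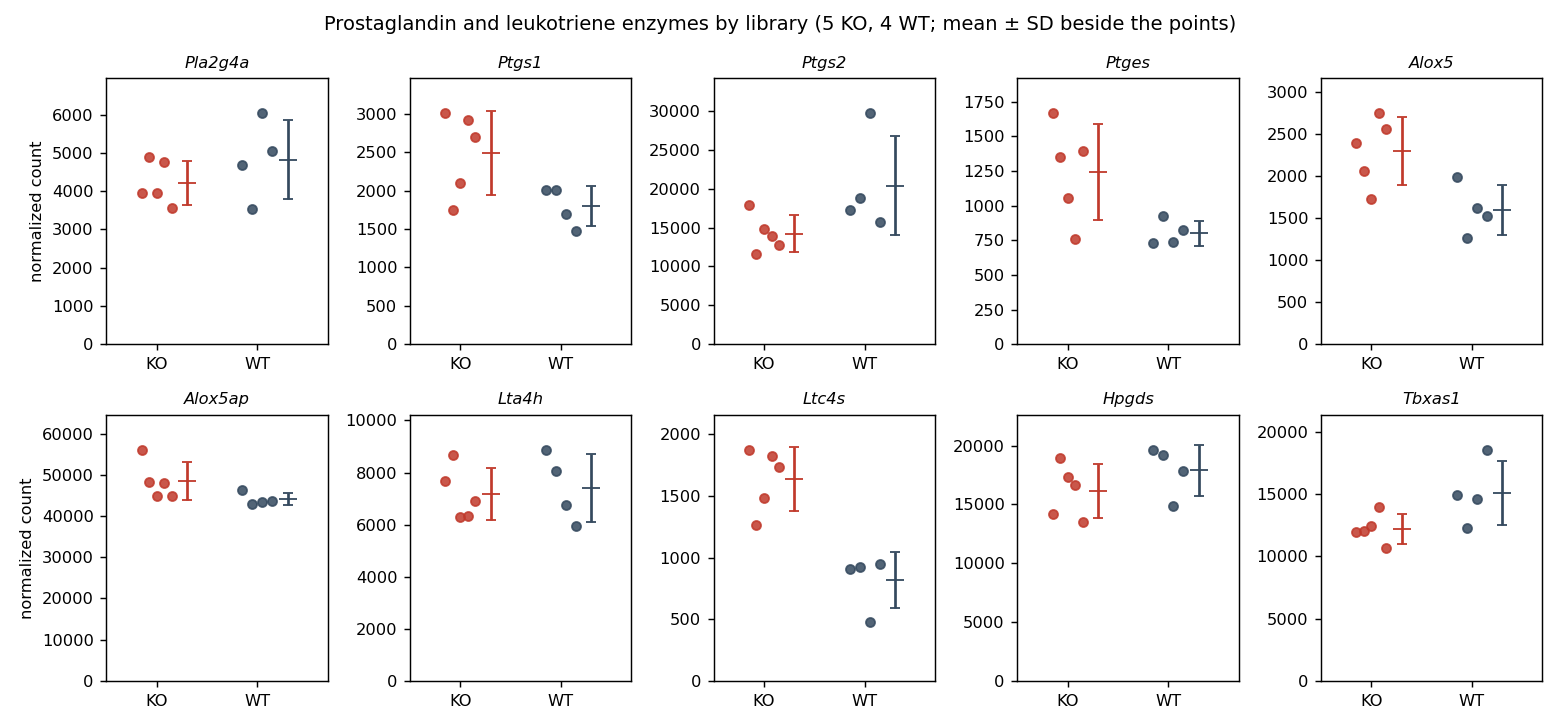
Normalized counts (linear axes from 0) of the 10 enzymes in the 5 KO libraries (left) and the 4 WT libraries (right), 1 point per library, with the group mean and SD beside the points. Each KO library lies above each WT library for Ltc4s, at 1267 to 1875 in KO, against 474 to 952 in WT, and the groups overlap for the other enzymes.

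Pla2g4a, which starts the pathway, showed no difference larger than the spread between libraries. It had 3550 to 4887 normalized counts in KO, against 3537 to 6042 in WT, and its log2 difference was -0.18 (95% interval -0.50 to 0.15; limma adjusted p = 0.772). In the 6 deeper libraries alone it was 0.10. The gene lies on the minus strand of chromosome 1 from 149829618 to 149961290 (mm10), 139 kilobases from Ptgs2, its neighbour in the pathway.

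The cyclooxygenases differed in opposite directions. Ptgs2, the inducible form (chromosome 1, 150100031 to 150108227, plus strand), had 17971, 11650, 14806, 13935 and 12797 normalized counts in KO replicates 1 to 5, and 17301, 18794, 29734 and 15721 in WT replicates 1 to 4. KO replicates 2 to 5 lay below each WT library, KO replicate 1 lay among them, and WT replicate 3 was the highest of all. The log2 difference was -0.49 (SE 0.16, 95% interval -0.83 to -0.14; limma adjusted p = 0.290), and it shrank to -0.32 in the 6 deeper libraries and to -0.29 without WT replicate 3. Ptgs1, the constitutive form (chromosome 2, 36230426 to 36252272, plus strand), had 3009, 1748, 2096, 2915 and 2693 in KO, against 2011, 2009, 1697 and 1469 in WT. Here 4 of the 5 KO libraries lay above each WT library and KO replicate 2 lay among them. The log2 difference was 0.45 (SE 0.19, 95% interval 0.06 to 0.85; limma adjusted p = 0.465), and 0.24 in the 6 deeper libraries.

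Ptgs2 is among the genes that tissue dissociation induces together with early response genes, whose values are given here for that reason. Of the 25 early response and heat shock genes on that list, 0 passed (0.309% over all genes). At an unadjusted p under 0.05, 16 were higher in KO and 0 lower (5.37% and 3.78% over all genes). Above 0 lay 22 and below it 3, the median log2 difference was 0.30, and the summed ranges overlapped slightly. The summed level was 528995 to 688530 normalized counts in KO, against 455413 to 529577 in WT. Among them Fos, an AP-1 subunit, had 82839 ± 12648 in KO, against 57087 ± 11218 in WT (adjusted p in limma = 0.0892; SD, n = 5 and 4). Jun, its partner in AP-1, had 4785 ± 565 in KO, against 3072 ± 724 in WT (adjusted p = 0.0892), and Dnajb1, a heat shock cochaperone, differed by 0.56 on the log2 scale (adjusted p = 0.112). The part of dissociation in the Ptgs2 value was not tested.

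The terminal prostanoid synthases did not share a direction. Ptges, the inducible prostaglandin E synthase that commonly works with Ptgs2 (chromosome 2, 30889471 to 30929863, minus strand), had 1667, 1348, 1054, 757 and 1393 normalized counts in KO, against 729, 922, 734 and 821 in WT. Only KO replicate 4 lay among the WT libraries; the other 4 KO libraries lay above them. The log2 difference was 0.59 (SE 0.24, 95% interval 0.07 to 1.11; limma adjusted p = 0.473), opposite in sign to that of Ptgs2. Tbxas1, thromboxane A synthase (chromosome 6, 38875404 to 39084585, plus strand), had 11945, 12061, 12409, 13937 and 10631 in KO, against 14926, 12266, 14558 and 18542 in WT. KO libraries 1, 2 and 5 lay below each WT library, and the difference was -0.30 (SE 0.11, 95% interval -0.53 to -0.06; limma adjusted p = 0.401), -0.11 in the 6 deeper libraries and -0.19 without WT replicate 4.

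Tbxas1 overlaps Hipk2 on the other strand, a kinase gene with 344 to 993 normalized counts in these libraries, and whether strand was used in counting is not given in the sources used here. Hpgds, hematopoietic prostaglandin D synthase (chromosome 6, 65117293 to 65144908, minus strand), had 13467 to 18974 normalized counts in KO, against 14875 to 19638 in WT, groups that overlapped widely. Its log2 difference was -0.15 (95% interval -0.39 to 0.09; limma adjusted p = 0.729). Platelet markers showed no difference that passed, with 0 of 6 measured genes called (0.309% over all genes). Their summed level was 37501 to 51378 in KO, against 35900 to 53710 in WT. Pf4, which resident macrophages also express, accounted for 36909 to 50827 in KO, against 35470 to 53336 in WT, while Itga2b, the platelet integrin, had 21.2 to 99.3 in KO, against 2.74 to 41.7 in WT. Itgb3, its partner subunit, and Treml1, a platelet receptor, had log2 differences of 1.40 and -1.93 (adjusted p = 0.629 and 0.715 in limma). Without WT replicate 2 the difference of Itgb3 was 0.61, and without KO replicate 2 that of Treml1 was -2.89.

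Within the leukotriene branch Ltc4s, leukotriene C4 synthase (chromosome 11, 50236461 to 50238616, minus strand), gave the largest difference of the 10 enzymes. It had 1875, 1267, 1484, 1827 and 1738 normalized counts in KO, against 911, 927, 474 and 952 in WT. Each of the 5 KO libraries lay above each of the 4 WT libraries, and WT replicate 3 lay far below the other three. The mean was 1638 ± 257 in KO, against 816 ± 228 in WT (SD, n = 5 and 4), a fold of 2.06 and a log2 difference of 1.04 (SE 0.24, 95% interval 0.53 to 1.55). The adjusted p was 0.0931 in limma and lay between 0.0851 and 0.503 over the 19 alternative settings, so the difference did not pass in any of them. Without WT replicate 3 the log2 difference was 0.80. An antisense transcript, Gm26542, overlaps Ltc4s in the annotation and was not analysed here.

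Alox5, 5-lipoxygenase (chromosome 6, 116410077 to 116461178, minus strand), had 2399, 2057, 1727, 2750 and 2559 normalized counts in KO, against 1984, 1269, 1622 and 1529 in WT. KO replicate 3 lay among the WT libraries and the other 4 KO libraries lay above them. The log2 difference was 0.52 (SE 0.18, 95% interval 0.13 to 0.91; limma adjusted p = 0.327). Alox5ap, the FLAP gene (chromosome 5, 149264767 to 149288153, plus strand), had 44817 to 56059 in KO, against 43012 to 46195 in WT, a log2 difference of 0.13 (95% interval -0.03 to 0.29; limma adjusted p = 0.631). Lta4h, leukotriene A4 hydrolase (chromosome 10, 93453411 to 93484875, plus strand), had 6281 to 8660 in KO, against 5946 to 8872 in WT, and its log2 difference of -0.04 (95% interval -0.32 to 0.24; adjusted p = 0.944) changed sign when single libraries were left out.

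**Figure D3:**
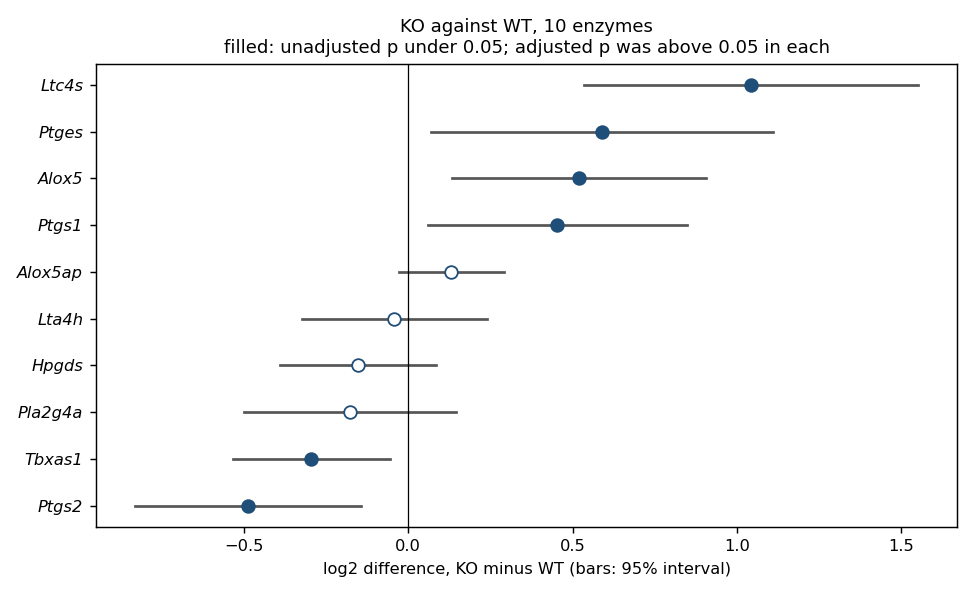
Log2 differences of the 10 enzymes, KO minus WT, with 95% intervals from limma; filled points have an unadjusted p under 0.05. Ltc4s lies at 1.04 and Ptgs2 at -0.49, and 0 of the 10 passed after adjustment over 14905 genes.

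Enzymes that act at the same step were then set against each other within each library, per kilobase of transcript, which removes any factor common to both genes of a library. Ptgs2 made up 79.4%, 81.1%, 82.0%, 75.5% and 75.4% of the cyclooxygenase transcripts in KO replicates 1 to 5, and 84.7%, 85.8%, 91.9% and 87.3% in WT replicates 1 to 4. The inducible form predominated in both groups, and each KO library lay below each WT library. The mean share was 78.7% ± 3.1 in KO, against 87.4% ± 3.2 in WT (SD, n = 5 and 4), a difference of -8.76 percentage points. In an exact permutation test, two-sided, p was 0.0159, the smallest possible with 5 and 4 libraries, and 0.0317 when adjusted over the 2 shares tested. The pairs behind these 2 shares were chosen with earlier results of these data known, which the adjustment does not cover. In the 6 deeper libraries alone the difference was -5.76 points (exact permutation p = 0.133, the smallest possible there).

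Ltc4s and Lta4h draw on the same leukotriene A4. Ltc4s made up 43.3%, 31.4%, 42.5%, 47.4% and 44.1% of their summed transcripts in KO, and 24.3%, 26.4%, 18.0% and 33.4% in WT. KO replicate 2 lay below WT replicate 4 and the groups were otherwise apart. The mean share was 41.7% ± 6.1 in KO, against 25.5% ± 6.3 in WT (SD, n = 5 and 4), a difference of 16.2 points (exact two-sided permutation p = 0.0317, also 0.0317 adjusted over the 2 shares). This pair, too, was chosen with earlier results of these data known. When single libraries were dropped, 2 of the 9 tests kept p under 0.05, with exact permutation p between 0.0286 and 0.0714. Transcript shares give no measure of the enzymes' activity or of their products.

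**Figure D4:**
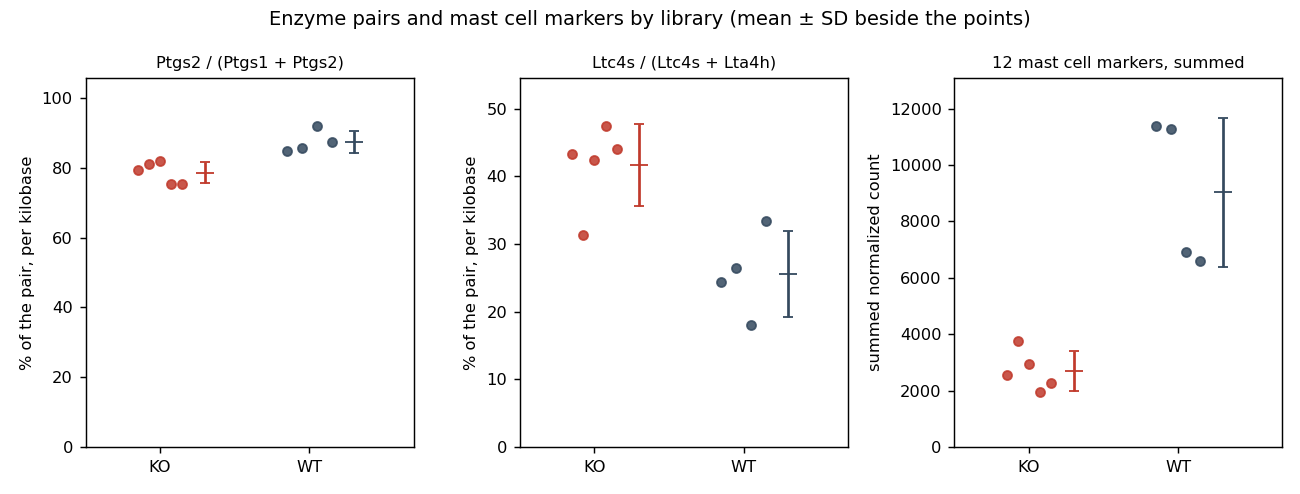
Left and middle, Ptgs2 as a percentage of Ptgs1 and Ptgs2, and Ltc4s as a percentage of Ltc4s and Lta4h, per kilobase; right, the summed normalized count of 12 mast cell markers; 1 point per library, KO left and WT right, with mean and SD. Mast cell markers lie at 1948 to 3758 in KO, against 6589 to 11369 in WT, the other way round from the Ltc4s share.

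Mast cell markers bear on Hpgds, Ltc4s and Alox5. All 12 were measured, and their summed level was 1948 to 3758 normalized counts in KO, against 6589 to 11369 in WT. Of the 12, 4 fell and 0 rose in limma, where 0.127% of all genes fell and 0.181% rose, namely the proteases Tpsb2, Cma1 and Cpa3 and the IgE receptor chain Fcer1a. Tpsb2 averaged 830 ± 294 in KO, against 2969 ± 904 in WT (adjusted p = 0.0092; SD, n = 5 and 4), and Cma1 565 ± 111 in KO, against 1819 ± 564 in WT (adjusted p = 0.0137). Cpa3 averaged 281 ± 140 in KO, against 1447 ± 605 in WT (adjusted p = 0.0223). Of 19 alternative settings Tpsb2 passed in 10, Cma1 in 9 and Cpa3 in 8, and of the 9 that left out 1 library Tpsb2 passed in 2, Cma1 in 1 and Cpa3 in 0, all with the same direction. Fcer1a (adjusted p = 0.0223) and the receptor Mrgprb2 were at the floor in each KO library. Ltc4s had its higher values in KO, where the summed markers were lower. Hpgds averaged 16132 ± 2271 normalized counts in KO, against 17894 ± 2157 in WT (SD, n = 5 and 4). Of 8 eosinophil and basophil markers, cells that also make leukotriene C4, 4 were measured and 0 passed (0.309% over all genes). Their summed level was 607 to 1506 in KO, against 813 to 1976 in WT. The part of mast cells and eosinophils in the values of these enzymes was not tested.

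The other genes of the pathway were counted in 4 lists of 73 genes, of which 61 were measured. In limma 1 rose and 0 fell, against 0.181% and 0.127% of all genes. At an unadjusted p under 0.05 there were 6 higher and 6 lower, against 5.37% and 3.78% of all genes. The ranges of the groups did not overlap in 2 genes higher and 2 lower in KO, where the table as a whole had 1.55% of its genes higher and 1.6% lower without overlap. The gene that rose was Ptgis, prostacyclin synthase. It had 1434, 1638, 1674, 1999 and 2477 normalized counts in KO, against 1127, 932, 667 and 735 in WT, with each KO library above each WT library. Its log2 difference was 1.10 (SE 0.22; limma adjusted p = 0.0497). That call sat at the edge of the threshold. It held in 4 of 19 alternative settings and in 0 of the 9 that left out 1 library, where the difference lay between 0.98 and 1.23. In the 6 deeper libraries it was 0.71.

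Endothelium and fibroblasts are known sources of prostacyclin synthase, and markers of non-macrophage cells are given beside it. Of all 14905 genes, 0.309% passed and 7809 lay above 0. Of 12 endothelial markers 0 passed, 12 lay above 0 and the median log2 difference was 1.29. Their summed level was 5177 to 9626 normalized counts in KO, against 2139 to 4806 in WT, ranges that did not overlap. Of 10 mesothelial markers 0 passed and 10 lay above 0, with 8991 to 29336 in KO, against 4272 to 13590 in WT, ranges that overlapped. Of 10 fibroblast markers 0 passed and 9 lay above 0, with 298030 to 462193 in KO, against 209596 to 347125 in WT, also overlapping. At an unadjusted p under 0.05, 6 endothelial, 7 mesothelial and 3 fibroblast markers were higher in KO (5.37% over all genes) and 0 lower (3.78%). A KO range wholly above the WT range was found for 3 endothelial markers and 0 of the others (1.55% over all genes). No marker of these lists was at the floor throughout a group. Their part in the values of Ptgis, Ptges and Ptgs1 was not tested.

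Within the same list of 14 measured synthases, carriers and catabolic enzymes, Hpgd, the dehydrogenase that inactivates prostaglandin E2, differed most in the other direction. It had 2022, 7918, 7143, 3317 and 7613 normalized counts in KO, against 17991, 16499, 9798 and 14643 in WT. Each KO library lay below each WT library, and the log2 difference was -1.55 (SE 0.34), which did not pass (limma adjusted p = 0.0755; between 0.0533 and 0.539 over the alternatives). Fam213b, a prostaglandin F synthase, had 2006 ± 209 in KO, against 2523 ± 194 in WT (adjusted p = 0.483; SD, n = 5 and 4). Ptgr2, a reductase of oxidised prostaglandins, had 3299 ± 564 in KO, against 4082 ± 353 in WT (adjusted p = 0.494). The list's median log2 difference was -0.13.

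Of 16 measured lipoxygenases and leukotriene-converting genes 0 passed (0.309% over all genes). Above 0 lay 14 and below it 2 (7809 of 14905 above over all genes). The median was 0.21 on the log2 scale, against 0.02 over all genes. Only 10 of the 16 had a mean normalized count of 100 or more. At an unadjusted p under 0.05 in limma, 2 were higher in KO and 0 lower (5.37% and 3.78% over all genes). Alox15, the 12/15-lipoxygenase known from resident peritoneal macrophages, had 5451, 3204, 2353, 1819 and 3261 normalized counts in KO, against 913, 48, 1012 and 1825 in WT. WT replicate 2 was the lowest by far, KO replicate 4 lay just under WT replicate 4, and the log2 difference was 2.48 (SE 0.75; limma adjusted p = 0.229) and 1.33 without WT replicate 2. In the 6 deeper libraries it was 3.797. Peritoneal macrophage markers, a list without Alox15, had 1 of 10 past the test, Selp, higher in KO (0.181% over all genes). Of these 10 markers 9 lay above 0 and 1 below, with a median log2 difference of 0.50. At an unadjusted p under 0.05 there were 3 higher and 0 lower (5.37% and 3.78% over all genes). A KO range wholly above the WT range was found for 3 (1.55% over all genes). Their summed level was 56505 to 84586 in KO, against 59186 to 65479 in WT, ranges that overlapped. Their part in the Alox15 value was not tested. Abcc1, which exports leukotriene C4 from cells, had 3114 to 3844 in KO, against 2224 to 2677 in WT, ranges that did not overlap (log2 difference 0.42, SE 0.13; adjusted p = 0.228). Alox12, platelet 12-lipoxygenase, and Dpep3, of the dipeptidase family, had low counts, with means of 38.3 and 66.1 in KO, against 2.33 and 26.3 in WT.

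Of 21 measured genes of arachidonate release and reacylation 0 passed (0.309% over all genes). Acsl4, an acyl-CoA synthetase that prefers arachidonate, had 9950 ± 1090 normalized counts in KO, against 12967 ± 1597 in WT (SD, n = 5 and 4). Its KO range of 8526 to 11336 lay below its WT range of 11856 to 15258 (log2 difference -0.38, SE 0.11; limma adjusted p = 0.179). Lpcat2, which reacylates lysophospholipids and makes platelet-activating factor, had 1115 ± 339 in KO, against 1838 ± 469 in WT (adjusted p = 0.280). Pla2g16, a phospholipase of fat tissue, had 877 ± 200 in KO, against 1495 ± 673 in WT (adjusted p = 0.405). Faah, which breaks down anandamide, stayed low, at 3.39 to 91.6 in KO, against 11.4 at most in WT, where 2 libraries were at the floor.

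Of 10 measured receptors 0 passed (0.309% over all genes). Ltb4r1, the receptor for leukotriene B4 on leukocytes, had 978, 274, 350, 583 and 600 normalized counts in KO, against 400, 149, 180 and 70 in WT. WT replicate 1 lay among the KO libraries, and the log2 difference was 1.61 (SE 0.53; limma adjusted p = 0.289), and 0.98 in the 6 deeper libraries. Neutrophils also carry this receptor, and of 9 measured neutrophil markers 0 passed (0.309% over all genes). Above 0 lay 7 and below it 2, with a median log2 difference of 0.70. At an unadjusted p under 0.05 in limma, 1 was higher in KO and 0 lower (5.37% and 3.78% over all genes). A KO range wholly above the WT range was found for 1 (1.55% over all genes). The summed level was 2750 to 4720 in KO, against 2264 to 3309 in WT, ranges that overlapped. The part of neutrophils in the Ltb4r1 value was not tested. Ptgir, the prostacyclin receptor, had 1140 ± 175 in KO, against 831 ± 192 in WT (adjusted p = 0.553; SD, n = 5 and 4). The prostaglandin receptors Ptgfr and Ptger3 had means of 44.1 and 31.8 in KO, against 4.16 and 3.86 in WT, with libraries at the floor in each group.

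**Figure D5:**
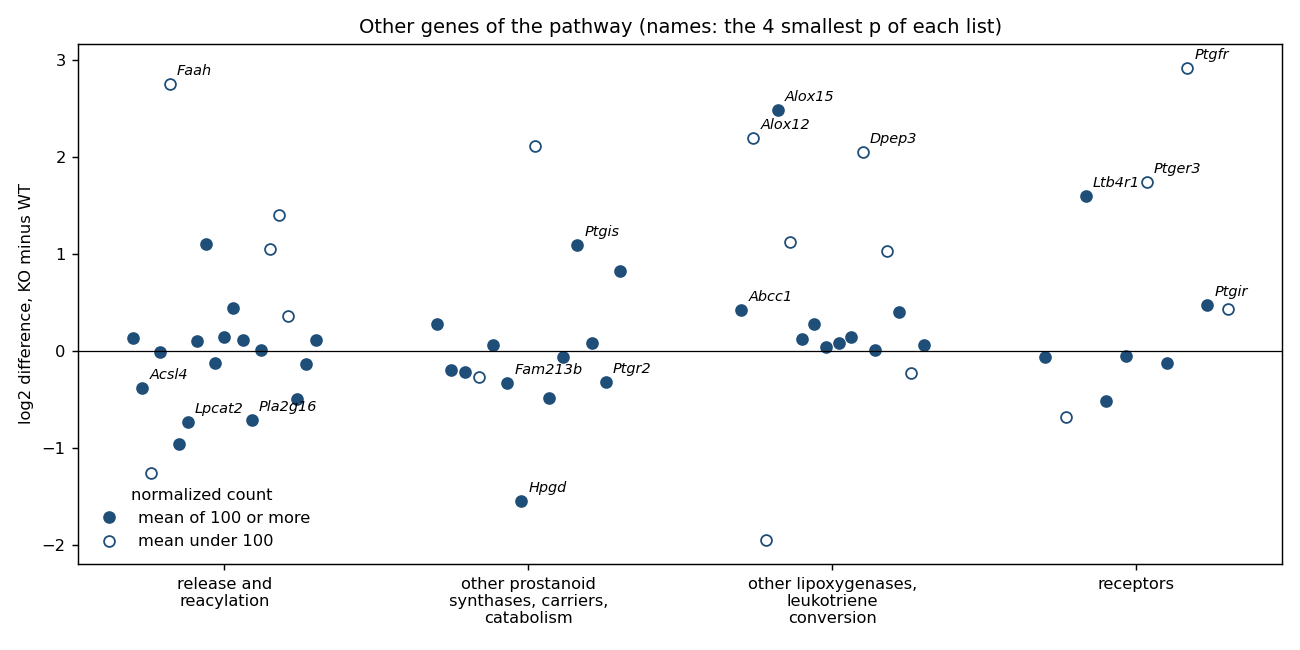
Log2 differences, KO minus WT, of the 61 other measured genes of the pathway in 4 lists; open points have a mean normalized count under 100, and names mark the 4 smallest p of each list. Ptgis lies at 1.10 and Hpgd at -1.55, and the widest differences above 2 are mostly those of open points.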

How the data were processed

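The deposited table holds a linear signal for each gene and library; judged from the values, the authors divided read counts by a factor for each library and set values under 1 to 1. Multiples of 1 step per library, within 0.1 of a step, made up 100% of values above 1 and up to 300 normalized counts. Tools in the submitters' processing notes, listed without roles, are DESeq2, Partek, HISAT and CASAVA 1.8.2, with build mm10; the gene filter and the counting rule are not given there. Per the labels' protocols, libraries were oligo-dT selected and strand-specific.

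Differences are from limma 3.58.1 (R 4.3.3) on log2 of the value plus 1, with a mean-variance trend, genotype as the only term, all 9 libraries and Benjamini-Hochberg adjustment over 14905 genes; this scale understates changes of low genes. Shares were compared with exact permutation tests (SciPy 1.17.1). Lengths are those of the longest principal transcript in GENCODE M21 (GRCm38). The code was tested on simulated data, where limma recovered 30% of 1.5-fold, 50% of 2-fold, 90% of 4-fold and 76% of 8-fold changes. Of 129 calls there 6 were false. True changes of 1.5-fold and 2-fold could thus fail to pass in that simulation. Its changed genes were drawn also from genes with means below 1047, the lowest mean of the enzymes. Recovery among genes at the level of the enzymes was not worked out. The enzymes, lists and tests were chosen with earlier results of these data known. Named are the 10 enzymes, Nucb2, in each pathway list the genes past the threshold and otherwise the smallest p up to 4 genes, and up to 3 genes each of the mast cell, platelet and dissociation lists; Hipk2, Pf4, Fcer1a, Mrgprb2, Selp and Gm26542 were added for overlaps or counts.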

Additional observations from a re-analysis of the deposited data

Results flagged for a closer look

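Of 76 groups of 4 or 5 libraries examined, 9 held a library far from the others. Chance gives about 1 in 20, or 3.8, but that rate does not hold for genes at the floor. Where the other libraries of a group all lie at the floor, any library above it is flagged. That was so for Alox12 and Ptgfr in WT and Treml1 in KO, so the 9 are not read as an excess. Ltc4s in WT replicate 3 was 474 normalized counts, below the other WT libraries at 911 to 952. Pla2g16 in the same library was 2499.9, above the others at 1071 to 1232. In that library Faah was 11.4 and Alox12 6.33, where the other WT libraries lay at or just above the floor. Jun in WT replicate 1 was 4154, above the others at 2628 to 2764. Ptger3 was 111 in KO replicate 5 and 10.9 in WT replicate 4. Ptgfr in WT replicate 4 was 13.6, and Treml1 in KO replicate 2 was 55.9, each with the other libraries of its group at or near the floor.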

How the results depend on the processing

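No enzyme passed under any of 19 alternative settings, and 186 of the 190 enzyme differences kept their direction. The exceptions were Pla2g4a, at 0.10 in the 6 deeper libraries, and Lta4h, which lay between -0.14 and 0.05 when 1 library was left out (0.050 without WT replicate 1, 0.0030 without KO replicate 3 and 0.0046 without WT replicate 2). The enzymes with an unadjusted p under 0.05 numbered 1 in the 6 deeper libraries and 3 to 7 with 1 library left out. The pathway gene past the threshold was lost (count 0) with a pseudocount of 0.1, quantile normalization, the replicate block, the depth class, the 6 deeper libraries and limma-voom, and in each fit that left out 1 library (0 to 0); the cause was not tested. Over all genes limma called 0 under the replicate block (1104 at an unadjusted p under 0.05) and 0 in the 6 deeper libraries (1039), which have fewer samples, and 5 to 38 with 1 library left out. Nucb2 stood at -1.58 with the replicate block and -1.61 in the 6 deeper libraries (adjusted p = 0.0515 and 0.116). The block drops KO replicate 5. Same-numbered pairs had correlations between -0.02 and 0.02, and 2 of 4 KO libraries correlated best with their own number. In the 6 deeper libraries the Ptgs2 share differed by -5.76 and the Ltc4s share by 15.8 points (exact permutation p = 0.133 each, the smallest possible); with 1 library left out the Ltc4s share differed by 13.7 to 18.8 points. A count-model test on reads worked out from the steps was not run, since the floor of 1 hides the lowest counts.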
